A study of Homo sapiens with 61 samples.

Results

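The response of human neurons to vincristine was compared between cells with and without knockdown of JUN. The members are the 20 libraries of Control gRNA and JUN gRNA, untreated and with vincristine (5 in each of 4 groups), out of 61 in the study, and the effect was measured over all 20759 expressed genes of 58440 in the table. WTC11, the parent of all of these neurons, is an induced pluripotent stem cell line of human origin in wide use, and all 4 groups carried the machinery for CRISPR interference, in which a guide RNA (gRNA) brings a repressor to the start of a gene. Cells were turned into cortical-type neurons by forced expression of the transcription factor NGN2. Control gRNA cells received a scrambled guide and JUN gRNA cells a guide against JUN by lentivirus. At day 14 they were given 5 nM vincristine, or the vehicle DMSO (called untreated in the labels), for 16 hours. Besides these groups, 9 libraries with a guide against ATF2 (ATF2 gRNA) entered the same statistical fit. A separate experiment of 32 libraries held wild-type neurons and knockouts of the kinases DLK, LZK or both, with the same dose and time. It served for choosing genes and for description. All libraries come from 1 line, the number of guides per target is not given in the sources used here, and nothing in the labels says that replicates were separate cultures, so p-values measure the spread between these libraries, which may be technical.

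JUN is a basic leucine zipper transcription factor. It binds DNA as part of the AP-1 dimer, together with FOS, ATF or other JUN proteins, and it is activated when JUN N-terminal kinase (JNK) phosphorylates it. In neurons, damage to axons or microtubules activates the kinases DLK and LZK, which lie upstream of JNK, and JUN is one of the best known effectors of that signal in both cell death and axon regrowth. Vincristine binds tubulin and prevents its assembly into microtubules.

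Transcript of JUN (ENSG00000177606.6, GRCh38 chromosome 1, 58780788 to 58784327) was low in every JUN gRNA library. Untreated Control gRNA libraries held 83.5, 93.9, 85.8, 97.8 and 81.7 CPM (counts scaled to the library's total, with TMM factors) and untreated JUN gRNA libraries 2.93, 2.73, 2.24, 2.98 and 3.47. With vincristine the values were 226, 243, 240.3, 255 and 223 in Control gRNA and 7.18, 6.89, 7.74, 5.92 and 4.4 in JUN gRNA, so the highest JUN gRNA library with drug lay far below the lowest Control gRNA library without it. The only expressed neighbour within 200 kb, MYSM1, was higher in untreated JUN gRNA (63.6 ± 5.35 against 46.1 ± 7.59 CPM, SD, n = 5), and its difference in effect, -0.57 on the log2 scale, was called (edgeR adjusted p = 0.016). ATF2, a partner of JUN, did not pass the test in either line (log2 fold change with vincristine 0.14 ± 0.12 in Control gRNA and -0.14 ± 0.12 in JUN gRNA, SE). Libraries held 38.9 to 88.4 M counts.

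The 10 neuron markers summed to 9339 to 9780 CPM in untreated Control gRNA, 8966 to 9554 in untreated JUN gRNA, 7836 to 8395 in Control gRNA with vincristine and 7803 to 8110 in JUN gRNA with vincristine. The 6 markers of progenitors and dividing cells summed to 1296 to 1388 CPM in untreated Control gRNA and 2409 to 2505 with vincristine, against 947 to 1070 and 1646 to 1754 in JUN gRNA. The sum moved with the drug and the guide, and nearly all of it was NES, the intermediate filament nestin (2398 to 2494 CPM in treated Control gRNA). The dividing-cell markers MKI67 and TOP2A never passed 2.71 and 3.60 CPM, and SOX1, PAX6 and HES5 never passed 2.60, 7.75 and 0.980. The oligodendrocyte sum, mostly MBP, was 11.8 to 16.5 CPM in untreated and 21.6 to 24.7 in treated Control gRNA, against 8.04 to 12.1 and 9.41 to 13.9 in JUN gRNA; its part in the results was not tested. NANOG, TDGF1, GFAP, ALDH1L1, MOG, AIF1, P2RY12, CSF1R, DCN and LUM did not pass the filter on low counts. The other 3 mesenchymal markers, all collagens, summed to 1.51 to 1.93 CPM in untreated and 2.50 to 3.15 in treated Control gRNA, against 0.335 to 0.814 and 0.308 to 1.59 in JUN gRNA; the part of this sum in the results was not tested either. The 3 other stem cell markers summed to at most 13.5 CPM in Control gRNA and 20.1 in JUN gRNA, and the astrocyte and microglial sums never passed 4.75 and 0.522. In bulk libraries, fewer cells of a type and less RNA per cell cannot be told apart.

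Replicate 5 of JUN gRNA with vincristine stood apart on part of the response. Over the JUN-independent genes defined below, its median log2 level over the untreated mean was 0.72, against 1.07 to 1.30 in the other 4 libraries, and over the 386 induced genes with a mean log2 CPM of at least 1 it was 0.42 against 0.52 to 0.56. Over the 246 JUN-dependent genes above that level it was 0.27, within the 0.24 to 0.39 of the others. Differences of 12 of the 13 JUN-independent genes are given below without it as well.

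Vincristine raised 3551 genes in Control gRNA (17.1% of those tested) and lowered 3767 (18.1%). In JUN gRNA it raised 1574 (7.58%) and lowered 1726 (8.31%). A gene is called raised or lowered where the edgeR quasi-likelihood p, adjusted over all genes, is under 0.05. The direct test is the difference in effect, the log2 fold change in JUN gRNA minus that in Control gRNA. It was called for 3273 genes (15.8%), 1808 of them above 0 (8.71%) and 1465 below 0 (7.06%). With no filter on low counts the calls were 1197 above and 1670 below, and they were 1389 and 1538 without untreated replicate 5 of JUN gRNA and 1749 and 1747 in a fit of only these 4 groups. Without untreated replicate 3 of Control gRNA they were 1718 and 1708. The balance between the directions thus depends on the filter, on single libraries of either line and on the groups fitted.

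Genes induced in Control gRNA, defined as called with a log2 fold change of at least 1, numbered 873 (4.21%). Their median log2 fold change was 1.72 in Control gRNA and 0.55 in JUN gRNA, and the median share of the log2 response kept was 31.3%, with quartiles of 11.5% and 52.7%. The difference was below 0 for 848 of the 873 and called below 0 for 391 (44.8%), against 7.06% of all genes tested. Control gRNA libraries enter both the choice of these genes and the difference, which favours values below 0. The same count was therefore made on genes chosen without them, in wild-type (WT) neurons of the same line in a separate experiment. Of 612 genes induced there and tested here, the difference was called below 0 for 283 (46.2%) and above 0 for 6. Among all genes tested in both experiments the shares were 8.44% below 0 and 10.6% above 0. The median log2 fold change of the 612 was 1.24 in Control gRNA and 0.49 in JUN gRNA, with a median of 41.0% kept.

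The 873 induced genes were divided by the size of what remained. JUN-dependent genes are those whose difference was called below 0 and which kept at most 50% of the log2 response. There were 330 (37.8%), with a median of 1.57 in Control gRNA and 0.29 in JUN gRNA. Partly dependent genes kept more than 50% with the difference called below 0, and numbered 61 (6.99%, medians 1.91 and 1.08). JUN-independent genes were called raised in JUN gRNA too, with a difference that was not called and whose 95% interval lay within 1.5-fold either way. The rule was met by 13 genes (1.49%, medians 1.19 and 1.19), among them JUN, the target of the guide. The name refers to the fold and not to the level. Without drug, 4 of the 13 were called lower and 4 higher in JUN gRNA than in Control gRNA (5.46% and 5.78% of all genes). With drug, 5 were lower and 2 higher (12.3% and 14.5% of all genes). A single gene, SSTR3, had a called difference above 0. The other 468 (53.6%) are undetermined. Their median log2 CPM was -0.66, and their median standard error of the difference was 0.75 (log2) against 0.24 for JUN-dependent genes; the difference was below 0 for 447 of them. Among the 386 induced genes with a mean log2 CPM of at least 1 the numbers were 246 JUN-dependent (63.7%), 59 partly dependent, 13 JUN-independent, 1 enhanced and 67 undetermined. These class sizes are descriptions, since the values that define the classes are those reported.

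The limits of the classes cut through a continuous range. FZD5 and ADRA1B, which kept 49.8% and 49.6%, fell just inside the JUN-dependent class, and SHROOM1 and BBC3, which kept 50.1% and 50.3%, just outside. ITPRIPL2 and JUN itself had intervals just inside the 1.5-fold margin, and ARHGAP9 and PTGS1 just outside.

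**Figure D1:**
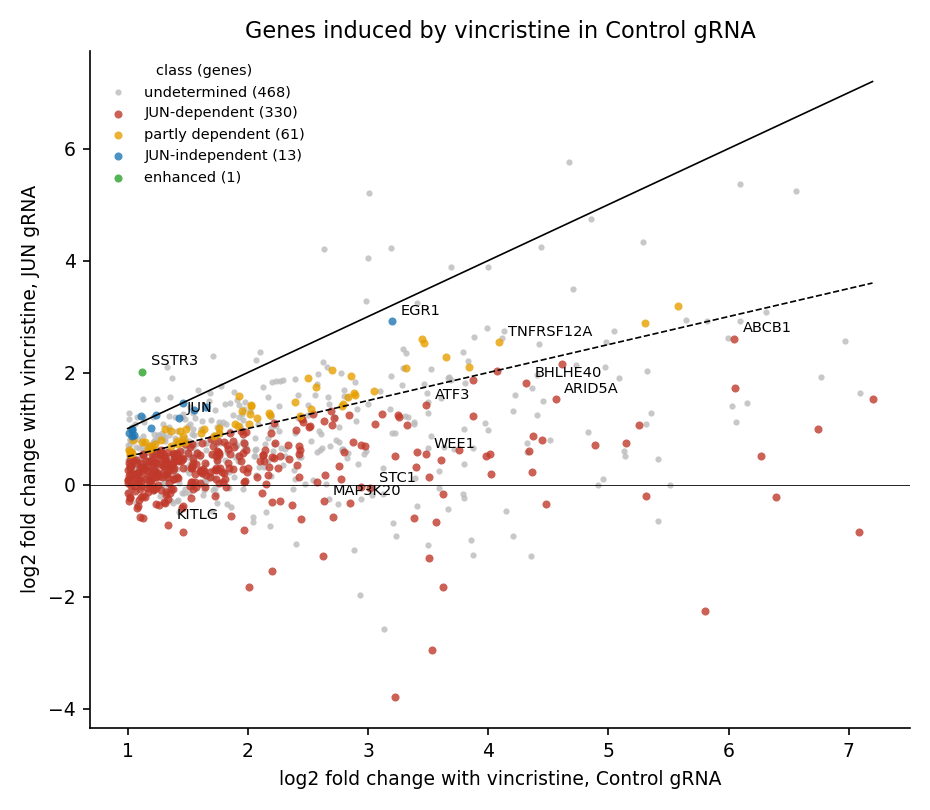
Each point is 1 of the 873 genes induced in Control gRNA, with its log2 fold change with vincristine in Control gRNA (x axis) and JUN gRNA (y axis), coloured by class. The solid line marks equal effects and the dashed line 50% of the Control gRNA effect. The 330 JUN-dependent genes lie on or below the dashed line by their definition, with a median of 0.29 on the y axis. The 13 JUN-independent genes lie near the solid line, with EGR1 the highest of them.

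Most of the loss lay in the treated level. Among JUN-dependent genes, 306 of 330 (92.7%) were called lower in JUN gRNA than in Control gRNA when both had vincristine, against 12.3% of all genes tested (14.5% were higher), and the median log2 difference was -1.48. Without drug, 96 (29.1%) were called lower in JUN gRNA, against 5.46% of all genes, and 21 higher, against 5.78% of all; the median was -0.10. Both comparisons share libraries with the rule that defined the class. In JUN gRNA alone, 125 of the 330 were still called higher with vincristine, and 2, KITLG and MSANTD4, were called lower.

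Among JUN-dependent genes with a mean log2 CPM of at least 1, the 12 with the lowest differences span transporters, secreted factors, receptors, kinases and transcriptional regulators. STC1 encodes stanniocalcin, a secreted hormone linked to calcium and phosphate handling. It stood at 3.86, 6.22, 5.15, 6.45 and 5.53 CPM in untreated Control gRNA and 47.4, 43.3, 44.1, 43.7 and 41.3 with vincristine. With JUN gRNA it stood at 3.14, 3.94, 3.38, 3.13 and 3.67 without and 3.38, 3.88, 3.22, 2.23 and 3.76 with drug. The Control gRNA groups were far apart and the JUN gRNA groups overlapped. The log2 fold change was 3.02 ± 0.12 in Control gRNA and -0.07 ± 0.13 in JUN gRNA, and the difference -3.08 ± 0.17 (SE; edgeR adjusted p = 1.0e-18). MAP3K20 encodes ZAK, a kinase that senses stalled ribosomes and acts upstream of JNK and p38. It rose from 3.53 ± 0.736 to 21.9 ± 1.16 CPM in Control gRNA (SD, n = 5) and stood at 4.49 ± 0.768 and 3.63 ± 1.01 in JUN gRNA, a difference of -2.94 ± 0.20 (SE; edgeR adjusted p = 1.0e-15).

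WEE1, the kinase that holds back entry into mitosis by phosphorylating CDK1, reached 148, 139.6, 141, 142 and 125 CPM in Control gRNA with vincristine, from 14.4, 9.55, 12.7, 12.2 and 13.4 without. In JUN gRNA it stood at 7.30, 7.91, 5.56, 7.19 and 5.22 without and 7.04, 13.0, 9.36, 8.76 and 10.1 with drug. The JUN gRNA groups overlapped, and the rise there was small but called (log2 fold change 0.54 ± 0.13 against 3.48 ± 0.12, SE; difference -2.94 ± 0.17, edgeR adjusted p = 6.8e-14). ARID5A, an RNA-binding protein that stabilises inflammatory transcripts, rose from 1.81 ± 0.200 to 43.0 ± 4.70 CPM in Control gRNA and from 0.737 ± 0.117 to 2.12 ± 0.802 in JUN gRNA (SD, n = 5). ABCB1, the drug efflux pump P-glycoprotein that exports vincristine among many compounds, went from 0.478, 0.661, 0.695, 0.909 and 0.888 to 49.8, 49.7, 49.2, 46.9 and 45.8 CPM in Control gRNA. It went from 0.110, 0.492, 0.322, 0.393 and 0.278 to 1.46, 2.54, 1.85, 2.70 and 1.03 in JUN gRNA. ABCB1 is JUN-dependent by the rule and still rose: it kept 43.1% of the log2 response (log2 fold change 2.61 ± 0.30 against 6.05 ± 0.25, SE) but reached a far lower level. The amount of vincristine inside the cells was not measured.

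VIM, the intermediate filament vimentin, rose from 18.8 ± 1.14 to 131 ± 5.89 CPM in Control gRNA and from 9.74 ± 0.649 to 14.5 ± 2.17 in JUN gRNA (SD, n = 5), with a difference of -2.22 ± 0.10 (SE; edgeR adjusted p = 1.9e-21). ADCY8, a calcium-stimulated adenylyl cyclase, had a difference of -2.65 ± 0.25, and BHLHE40, a repressor of the clock and stress responses, one of -2.50 ± 0.42. F2RL2, a thrombin-family receptor, and EPHA2, a receptor for ephrins, kept 3.44% and 0.420% of the response, with differences of -2.68 ± 0.32 and -2.14 ± 0.41 (SE). FREM3, an extracellular matrix protein, and the antisense gene ENSG00000236841 had differences of -2.30 ± 0.38 and -2.24 ± 0.26 (SE). The strand setting of the counting is not given in the sources used here, so reads of the latter cannot be told apart from those of a gene on the other strand.

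**Figure D2:**
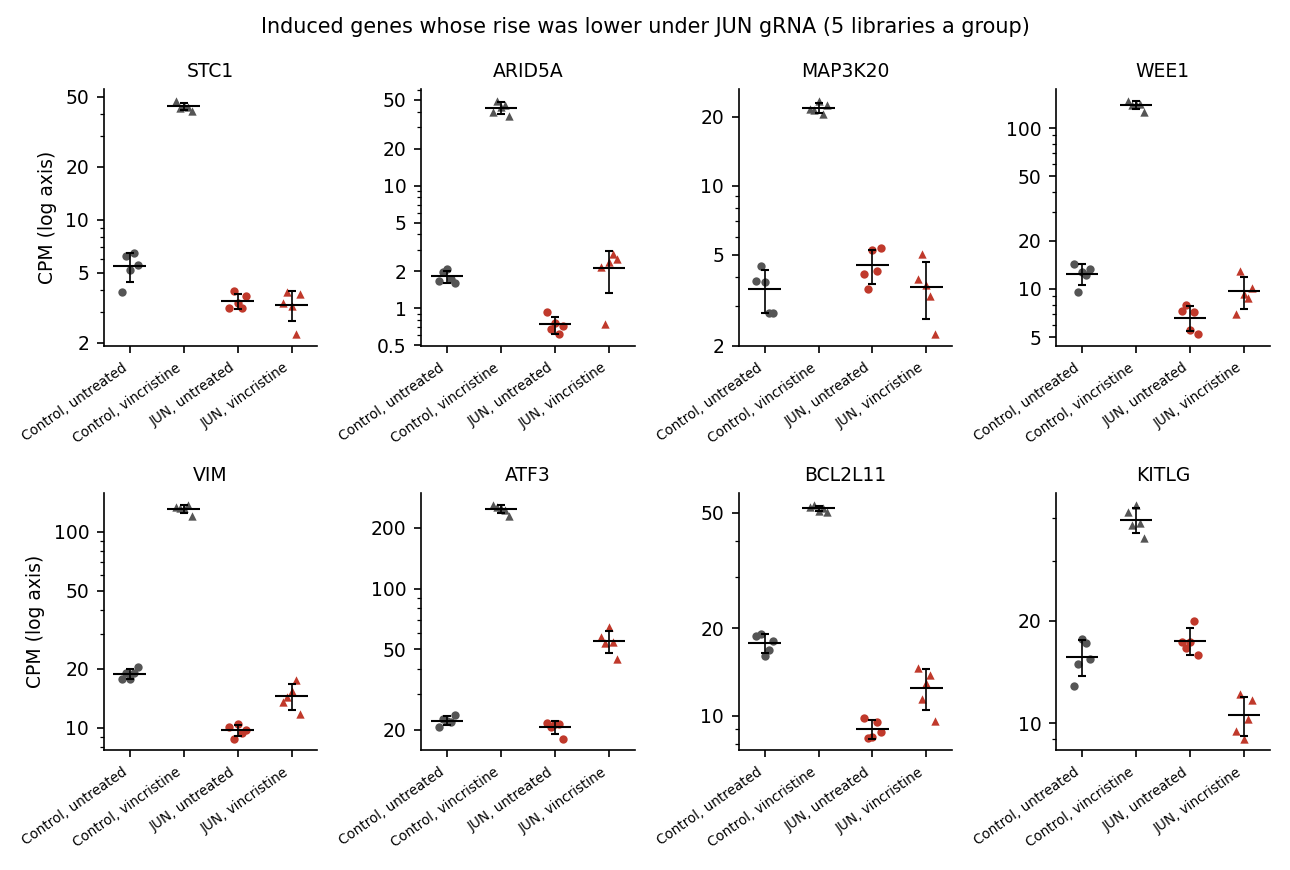
CPM (log axis) of 8 genes in each of 5 libraries per group, with the mean (bar) and SD (whiskers). In all 8 panels the Control gRNA libraries with vincristine lie above the other 3 groups; in KITLG the JUN gRNA libraries with vincristine lie below the untreated ones.

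Promoters of some of these genes hold the motifs that AP-1 and CREB or ATF dimers are known to bind. The AP-1 motif TGANTCA and the cyclic AMP response element TGACGTCA, each of which reads the same on both strands, were searched from 250 bases before to 50 after the start in RefSeq promoters (GRCh38.p14), matched for 13215 tested genes. The 60-base windows shown, 5′ to 3′ on the gene's strand with the match in capitals, are from 5 JUN-dependent genes named in the text that hold one, shown to place the match beside the start.
EPHA2 (chr1:16156087-16156146, minus strand): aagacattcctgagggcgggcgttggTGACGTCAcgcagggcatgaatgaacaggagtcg
F2RL2 (chr5:76623407-76623466, minus strand): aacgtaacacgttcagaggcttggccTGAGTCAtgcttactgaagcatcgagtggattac
SMAD1 (chr4:145481235-145481294, plus strand): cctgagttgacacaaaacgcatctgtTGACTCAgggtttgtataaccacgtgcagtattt
SST (chr3:187670408-187670467, minus strand): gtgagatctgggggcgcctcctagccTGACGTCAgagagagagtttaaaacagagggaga
PPP1R15A (chr19:48872337-48872396, plus strand): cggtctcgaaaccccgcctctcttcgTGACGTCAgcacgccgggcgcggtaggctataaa
The matches start at -51, -37, -45, -47 and -58 from the transcript start. Most JUN-dependent genes examined for a window held no match in the 250 bases before the start. ATF3, ARID5A, ABCB1, MAP3K20, VIM, FOSL2 and BCL2L11 were among them. Only a single RefSeq start of each gene was searched, so matches at other starts of a gene would be missed. STC1 and ADCY8 were among the genes not examined for a window. TGANTCA was found in 22 of 248 JUN-dependent promoters (8.87%), 7 of 40 partly dependent (17.5%), 33 of 287 undetermined (11.5%) and 0 of 9 JUN-independent promoters, beside 4.73% of all 13215. TGACGTCA was found in 12 JUN-dependent (4.84%) and 6 undetermined promoters (2.09%), beside 3.12% of all. A match is a description of the letters in the window, and binding was not measured.

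In the list of AP-1 and ATF factors, which includes JUN itself and small MAF proteins, 11 of 14 tested were raised by vincristine in Control gRNA and 8 in JUN gRNA. Raised genes were 17.1% and 7.58% of all tested. The difference was called below 0 for 6 and above 0 for 1 of these factors, beside 7.06% and 8.71% of all genes. The median log2 fold change of the list was 1.01 in Control gRNA and 0.75 in JUN gRNA, beside 0.03 and 0.01 over all genes tested. ATF3, an injury-induced AP-1 and CREB family member, rose from 20.6, 22.6, 22.1, 21.9 and 23.6 to 259.8, 255, 251, 244 and 229.6 CPM in Control gRNA. With JUN gRNA it rose from 21.6, 20.7, 21.3, 21.3 and 18.0 to 57.4, 53.6, 64.2, 54.3 and 44.9. The groups with drug did not overlap, while the untreated levels of the 2 lines were close (-0.11 on the log2 scale, not called). The difference was -2.07 ± 0.10 (SE; edgeR adjusted p = 6.5e-20). FOSL2, a FOS-family partner, went from 1.70 ± 0.318 to 16.1 ± 0.530 CPM in Control gRNA and from 0.699 ± 0.335 to 1.68 ± 0.532 in JUN gRNA, and CREB5 from 28.4 ± 2.90 to 154 ± 5.34 and from 22.6 ± 3.06 to 51.6 ± 7.75 (SD, n = 5). JDP2, a JUN dimerisation protein, and the small MAF proteins MAFF and MAFG also had called differences (-0.62 ± 0.13, -0.87 ± 0.24 and -0.33 ± 0.07, SE). JUNB moved the other way, with a log2 fold change of 0.15 ± 0.11 in Control gRNA that was not called and 0.75 ± 0.11 in JUN gRNA (difference 0.60 ± 0.15, SE). JUND (0.95 ± 0.06 and 0.74 ± 0.06) had no called difference.

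Of 16 JNK pathway kinases and scaffolds, 4 were raised and 6 lowered in Control gRNA, and the difference was called below 0 for 4, against 17.1%, 18.1% and 7.06% of all genes. MAPK8IP1, the scaffold JIP1, rose from 332 ± 27.1 to 587 ± 38.6 CPM in Control gRNA and from 265 ± 20.6 to 316 ± 20.5 in JUN gRNA (SD, n = 5; difference -0.56 ± 0.08, SE). The transcript of LZK, MAP3K13, rose in both lines (0.53 ± 0.06 and 0.23 ± 0.06), with a called difference of -0.30 ± 0.09. The others were MAP3K1 (-0.35 ± 0.10) and MAP3K5, the kinase ASK1 (-0.94 ± 0.25, SE). MAP3K12, the gene of DLK, stood at -0.04 and -0.06, neither called. The MAP kinase phosphatases, which switch off JNK, p38 and ERK, had 5 of 10 members raised in each line. Of all genes, 17.1% were raised in Control gRNA and 7.58% in JUN gRNA. The JNK phosphatase DUSP16 kept 69.4% of its log2 response (from 61.6 ± 2.94 to 251 ± 8.57 CPM in Control gRNA and from 37.3 ± 1.64 to 98.8 ± 8.00 in JUN gRNA, SD, n = 5). DUSP8 kept 68.1%, DUSP5 48.3% and DUSP1 50.3%, all with a difference called below 0. DUSP6, an ERK phosphatase, was the member with a difference above 0 (0.45 ± 0.07, SE).

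HRK, BCL2L11, BBC3 and PMAIP1 are BH3-only genes, whose proteins neutralise the survival members of the BCL2 family, and all 4 rose less in JUN gRNA. In the BCL2 family, 6 of 15 tested were raised in Control gRNA and 5 in JUN gRNA, beside 17.1% and 7.58% of all genes. In Control gRNA 3 were lowered (18.1% of all). The difference was called below 0 for 5 and above 0 for 3, beside 7.06% and 8.71% of all genes. HRK went from 64.2, 66.4, 55.6, 62.6 and 65.1 to 288, 284, 289, 285 and 277 CPM in Control gRNA. It went from 32.9, 37.3, 36.3, 36.3 and 33.5 to 87.9, 82.6, 84.9, 88.5 and 71.8 in JUN gRNA, with no overlap between any of the 4 groups and a lower level in JUN gRNA already without drug (-0.83 ± 0.05 on the log2 scale, SE). It kept 56.8% of the log2 response and is partly dependent. BCL2L11, the gene of BIM, is JUN-dependent: Control gRNA libraries rose from 18.8, 19.1, 16.0, 16.9 and 18.1 to 52.6, 53.3, 50.8, 51.9 and 50.4 CPM. JUN gRNA libraries held 9.81, 8.35, 8.42, 9.54 and 8.80 without and 14.6, 11.4, 13.0, 13.8 and 9.55 with drug, so that every treated JUN gRNA library stayed below every untreated Control gRNA library. BBC3 (PUMA) rose from 8.10 ± 0.298 to 43.7 ± 4.88 CPM in Control gRNA and from 6.79 ± 0.232 to 15.8 ± 2.89 in JUN gRNA, and PMAIP1 (NOXA) from 3.82 ± 0.699 to 9.90 ± 0.633 and from 3.98 ± 0.653 to 5.24 ± 0.960 (SD, n = 5). BCL2 itself, a survival gene, was the other member below 0 (-0.49 ± 0.17, SE), although neither of its effects was called. Differences above 0 were those of the survival genes BCL2L1 (-0.45 in Control gRNA, -0.02 in JUN gRNA) and MCL1 (-0.16 and 0.09). The last was that of BID, itself a BH3-only gene (-0.55 and -0.15). The falls of these 3 in Control gRNA were called, and their values in JUN gRNA were not. The other members tested, BH3-only genes among them, had no called difference.

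Among 9 death and injury receptors tested, 6 were raised in Control gRNA and 4 in JUN gRNA, beside 17.1% and 7.58% of all genes. The difference was called below 0 for 3 (7.06% of all genes), TNFRSF12A, TNFRSF10B and TNFRSF19. TNFRSF12A, the TWEAK receptor that is induced in injured tissue, went from 2.19 ± 0.561 to 37.0 ± 1.67 CPM in Control gRNA and still reached 14.4 ± 2.10 from 2.48 ± 0.498 in JUN gRNA (SD, n = 5), keeping 62.2%. TNFRSF10B, a receptor for the death ligand TRAIL, shows a difference that lay mostly in the untreated level. It held 15.6, 15.6, 14.3, 16.8 and 14.6 CPM in untreated Control gRNA and 30.9, 32.2, 27.9, 30.8 and 30.4 in untreated JUN gRNA. With vincristine it held 44.5, 46.6, 45.7, 43.6 and 40.7 and 40.5, 36.8, 37.9, 39.1 and 31.4. Its log2 fold change was 1.53 ± 0.06 in Control gRNA and 0.29 ± 0.06 in JUN gRNA, although the treated levels differed by only -0.25 ± 0.06 (log2, SE). Of 12 p53 targets, 7 were raised in Control gRNA and 4 in JUN gRNA, beside the same shares of all genes. Their difference was called below 0 for 5 (7.06% of all genes). These are BBC3, TNFRSF10B, the cell cycle inhibitor CDKN1A (-1.10 ± 0.11), RRM2B, a subunit that supplies nucleotides for DNA repair (-0.47 ± 0.10), and TP53I3 (-0.36 ± 0.11, SE). MDM2, the p53 target that limits p53, had values of 0.04 and -0.09, neither called.

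The integrated stress response, in which phosphorylation of eIF2 lets ATF4 be translated and raise genes of amino acid supply, had a called difference below 0 for 15 of 17 members. In Control gRNA 16 were raised, in JUN gRNA 12. Of all genes, 7.06% had a called difference below 0, and 17.1% were raised in Control gRNA and 7.58% in JUN gRNA. The list median was 1.27 in Control gRNA and 0.36 in JUN gRNA. DDIT3 (CHOP), its pro-apoptotic transcription factor, rose from 19.5, 19.0, 19.5, 19.4 and 20.2 to 142, 150.4, 143, 139.7 and 148 CPM in Control gRNA. It rose from 23.4, 23.1, 26.1, 23.2 and 21.8 to 69.96, 75, 78.7, 77.3 and 53.9 in JUN gRNA and kept 55.1% of the log2 response. TRIB3, an inhibitor of AKT, went from 19.2 ± 0.521 to 105 ± 6.77 and from 21.1 ± 1.67 to 47.2 ± 6.28, and CEBPB from 3.49 ± 1.28 to 20.1 ± 3.58 and from 4.04 ± 0.583 to 8.25 ± 1.82 CPM (SD, n = 5). The cystine transporter SLC7A11 (1.73 ± 0.15 and 0.30 ± 0.14) and asparagine synthetase ASNS (0.69 ± 0.09 and 0.02 ± 0.09, SE) were called in Control gRNA only, with called differences of -1.44 and -0.67. PPP1R15A (GADD34), which reverses eIF2 phosphorylation, had 1.37 ± 0.05 and 0.36 ± 0.05 (SE). ATF5 kept 70.05%. The transcript of ATF4 itself was lowered slightly in Control gRNA (-0.10; -0.09 in JUN gRNA, not called) and had no called difference, and PHGDH was the other member without one.

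The cytosolic aminoacyl-tRNA synthetases, which ATF4 is known to raise, moved by less. Of 18, 11 were raised in Control gRNA and 8 in JUN gRNA, with 8 differences below 0 and 1 above. Another 4 were lowered in Control gRNA and 1 in JUN gRNA. Over all genes, 17.1% were raised and 18.1% lowered in Control gRNA, and 7.58% and 8.31% in JUN gRNA. Called differences below 0 were 7.06% of all genes, and those above 0 were 8.71%. IARS1 went from 303 ± 10.3 to 463 ± 18.1 CPM in Control gRNA and from 301 ± 14.6 to 351 ± 14.2 in JUN gRNA (SD, n = 5). The calls for GARS1 and WARS1 were lost when single libraries were left out. Endoplasmic reticulum chaperones fell with vincristine, 14 of 16 in Control gRNA and 12 in JUN gRNA, and the difference was above 0 for 8 and below 0 for 1. CALR, a calcium-binding chaperone, fell from 317 ± 9.02 to 176 ± 6.60 CPM in Control gRNA and from 325 ± 22.6 to 219 ± 23.0 in JUN gRNA (SD, n = 5).

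**Figure D3:**
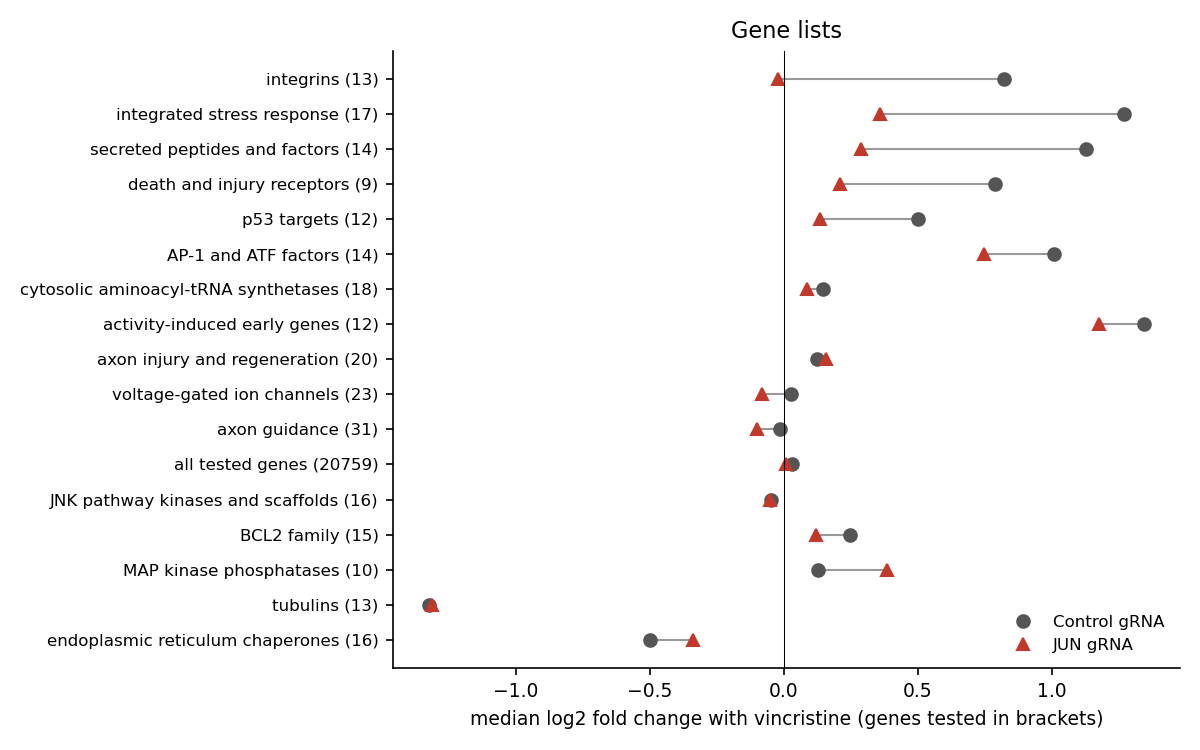
Median log2 fold change with vincristine over the tested genes of each list, in Control gRNA (circles) and JUN gRNA (triangles). Integrins (0.82 to -0.02) and the integrated stress response (1.27 to 0.36) show wide gaps, while activity-induced early genes (1.35 and 1.18) and tubulins (-1.32 and -1.31) have close medians.

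In the list of axon injury and regeneration genes, 9 of 20 were raised and 6 lowered in Control gRNA. In JUN gRNA 8 were raised and 3 lowered, and differences were called for 7 below and 5 above 0. Of all genes, 17.1% were raised and 18.1% lowered in Control gRNA, and 7.58% and 8.31% in JUN gRNA. Called differences were 7.06% below and 8.71% above 0. GADD45A, a stress sensor upstream of p38 and JNK, rose from 18.8 ± 1.38 to 89.5 ± 5.01 CPM in Control gRNA and from 13.9 ± 0.566 to 17.0 ± 1.09 in JUN gRNA (SD, n = 5; difference -1.97 ± 0.09, SE; edgeR adjusted p = 3.5e-21). SMAD1, a transducer of BMP signals that supports axon regrowth, went from 40.1, 37.4, 41.6, 46.5 and 43.6 to 135, 135, 129, 131 and 110.3 CPM in Control gRNA. It went from 36.7, 37.5, 34.6, 38.0 and 38.3 to 48.6, 42.3, 47.8, 43.3 and 37.2 in JUN gRNA, where the groups overlapped. FLRT3, a cell adhesion molecule, had a difference of -1.25 ± 0.20. STMN4, a tubulin-binding stathmin, kept more than 50% (1.22 ± 0.07 and 0.72 ± 0.07, SE). SOX11 and GAP43, genes of axon growth, had differences of 0.00 and -0.09, neither called.

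Integrins, the receptors by which cells hold on to the extracellular matrix, were raised in Control gRNA for 8 of 13 tested and in JUN gRNA for 1. The shares of all genes raised are 17.1% and 7.58%. The difference was called below 0 for 5 and above 0 for 1, beside 7.06% and 8.71% of all genes. The median of the integrins was 0.82 in Control gRNA and -0.02 in JUN gRNA. ITGAV held 30.4, 29.4, 32.6, 29.5 and 29.2 CPM in untreated Control gRNA and 76.8, 70.1, 79.3, 73.3 and 67.0 with vincristine. In JUN gRNA it held 35.8, 36.8, 32.2, 38.9 and 34.3 and 28.8, 40.0, 31.0, 36.4 and 30.4, which overlap. ITGA6 went from 0.816 ± 0.408 to 5.43 ± 0.377 CPM in Control gRNA and from 1.33 ± 0.382 to 0.880 ± 0.223 in JUN gRNA, and ITGA8 from 1.86 ± 0.482 to 9.89 ± 1.07 and from 1.45 ± 0.494 to 1.84 ± 0.725 (SD, n = 5). ITGA3 and ITGA7 were the other members below 0 (-0.79 and -0.43). ITGB8 was the member raised in JUN gRNA, and ITGB1, the common beta subunit, the one with a difference above 0 (0.18).

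Of 31 axon guidance genes, 6 were raised and 12 lowered in Control gRNA, 5 and 11 in JUN gRNA, and differences were called for 8 below and 9 above 0. Of all genes, 17.1% were raised and 18.1% lowered in Control gRNA, so the number of guidance genes raised is near the background; the shares in JUN gRNA are 7.58% and 8.31%, and those of called differences 7.06% and 8.71%. UNC5B, a netrin receptor that can trigger death, rose from 18.0 ± 1.48 to 124 ± 7.46 CPM in Control gRNA and from 15.6 ± 2.40 to 42.5 ± 3.24 in JUN gRNA. NRP2, a semaphorin co-receptor, rose from 27.2 ± 1.33 to 63.6 ± 4.65 and stood at 16.3 ± 1.56 and 17.9 ± 0.695 in JUN gRNA (SD, n = 5). Its relative NRP1 fell in both lines (-1.11 ± 0.06 and -0.89 ± 0.06, SE). Among 14 secreted peptides and factors, 10 were raised in Control gRNA and 6 in JUN gRNA, with 5 differences below 0 and 3 above. Besides STC1 and STC2, these 5 were SST (-0.88), VGF (-0.56) and SCG2 (-0.97). BDNF was raised in both lines (0.64 ± 0.13 and 0.78 ± 0.13, SE). Of 23 voltage-gated ion channels, 6 were raised and 6 lowered in Control gRNA, and differences were called for 6 below and 5 above 0, beside the same shares of all genes. The potassium channel KCND3 rose from 11.5 ± 0.608 to 29.8 ± 0.985 CPM in Control gRNA and stood at 10.0 ± 0.959 and 10.7 ± 1.59 in JUN gRNA (SD, n = 5). KCNA1 kept 57.3%, and its called difference (-2.38 ± 0.74, SE; edgeR adjusted p = 0.021) moved to -1.89 without untreated replicate 1 of JUN gRNA, with an edgeR adjusted p of 0.12.

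Of the 13 JUN-independent genes, 3 are in the list of activity-induced early genes, EGR1, IER2 and KLF10, and FOS and JUN are AP-1 factors. EGR1, a zinc finger transcription factor, went from 16.3, 11.4, 12.9, 13.3 and 15.3 to 126, 142, 125, 126 and 119 CPM in Control gRNA. With JUN gRNA it went from 38.8, 40.4, 32.0, 39.6 and 46.7 to 316, 317, 330.1, 302 and 224. The folds were not called different (3.20 ± 0.11 and 2.92 ± 0.10, difference -0.28 ± 0.14, SE; edgeR adjusted p = 0.20) from a higher base: JUN gRNA was higher by 1.5 ± 0.10 without and 1.22 ± 0.09 with drug (log2, SE). Without replicate 5 of JUN gRNA with vincristine the difference was -0.20 ± 0.11 (SE). FOS, the classical partner of JUN, held 2.26, 2.43, 1.52, 1.88 and 2.83 CPM in untreated and 5.68, 6.86, 5.41, 5.05 and 6.95 in treated Control gRNA. In JUN gRNA it held 3.89, 3.14, 3.19, 4.32 and 4.57 and 11.6, 12.5, 12.7, 10.7 and 4.97, where replicate 5 is far below the others. The difference was 0.01 ± 0.27 with that library and 0.17 ± 0.20 without it (SE).

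IER2, an immediate early gene, rose from 31.9 ± 3.62 to 93.3 ± 4.38 CPM in Control gRNA and from 37.6 ± 2.32 to 94.1 ± 8.30 in JUN gRNA (SD, n = 5). Its difference of -0.22 ± 0.08 (SE; edgeR adjusted p = 0.053) was next to the threshold, and was called in several alternative fits. TXNIP, an inhibitor of thioredoxin, went from 60.6 ± 3.93 to 143 ± 8.13 and from 49.1 ± 6.52 to 116 ± 17.6, and KLF10, a TGF-beta-induced transcription factor, from 15.2 ± 1.09 to 31.0 ± 3.01 and from 15.2 ± 1.41 to 29.7 ± 5.06 CPM (SD, n = 5). The receptor-like gene GPRC5C kept 84.4%, BEAN1 110.1%, SEL1L3 95.2% and ITPRIPL2 84.0%. H2BC20P, a histone pseudogene, and ENSG00000272993.1 kept 83.3% and 83.2%; reads of near-identical histone copies can be split between genes, so the first is uncertain. TCF7 and JUN complete the class. JUN is the target of the guide, so its fold in JUN gRNA is that of the transcript left after knockdown. That fold cannot show whether the rise of JUN needs JUN protein. JUN had log2 fold changes of 1.42 ± 0.10 and 1.19 ± 0.13 (SE), while its level differed between the lines by -4.96 without and -5.19 with drug. Without replicate 5 the differences of IER2, TXNIP and KLF10 were -0.18, 0.09 and 0.03, and that of JUN -0.14. Those of GPRC5C, BEAN1, SEL1L3 and ITPRIPL2 were -0.19, 0.14, 0.08 and -0.23, and those of H2BC20P and ENSG00000272993.1 -0.15 and -0.12. None of these was called. Leaving out replicate 1 of Control gRNA with vincristine brought the class to 8 genes, and leaving out replicate 5 of JUN gRNA with vincristine to 17.

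Among 12 activity-induced early genes tested, 6 were raised in Control gRNA and 8 in JUN gRNA, with medians of 1.35 and 1.18. Differences were called below 0 for 2, ARC and BHLHE40, and above 0 for 3. Over all genes these shares were 7.06% and 8.71%, and 17.1% were raised in Control gRNA and 7.58% in JUN gRNA. ARC, which regulates glutamate receptors at synapses, rose from 2.02 ± 0.501 to 13.2 ± 1.17 CPM in Control gRNA and from 2.26 ± 0.350 to 9.21 ± 2.44 in JUN gRNA (SD, n = 5); its call was lost without untreated replicate 2 of Control gRNA (-0.57 on the log2 scale) or untreated replicate 5 of JUN gRNA (-0.60). IER5 fell in Control gRNA (-0.50 ± 0.07) and rose in JUN gRNA (0.85 ± 0.07, SE). NR4A2 and NR4A3 fell in both lines, by less in JUN gRNA (-1.33 against -0.61 and -1.36 against -0.61). NR4A1 had a difference of -0.72 ± 0.28 that was not called (SE), and that was -1.17 and called without untreated replicate 2 of Control gRNA.

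Tubulin transcripts, which cells are known to degrade when free tubulin rises, fell in both lines. In Control gRNA 10 of 13 were lowered and in JUN gRNA 11, with medians of -1.32 and -1.31. Of all genes, 18.1% were lowered in Control gRNA and 8.31% in JUN gRNA. TUBB went from 2845 ± 63.3 to 863 ± 15.3 CPM in Control gRNA and from 2484 ± 83.3 to 775 ± 75.9 in JUN gRNA (SD, n = 5), a difference of 0.04 with a 95% interval of -0.08 to 0.16. TUBA1B, TUBA1A and TUBB4A had differences of 0.16 ± 0.08, 0.10 ± 0.07 and 0.22 ± 0.09 (SE), none called; they were called without replicate 4 of JUN gRNA with vincristine. TUBB6 was the exception that rose in Control gRNA (0.94 ± 0.13) and stood at -0.03 ± 0.13 in JUN gRNA, with a called difference of -0.97; TUBA1C, lowered in JUN gRNA only, was the other difference below 0, and TUBB4B had one above 0.

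**Figure D4:**
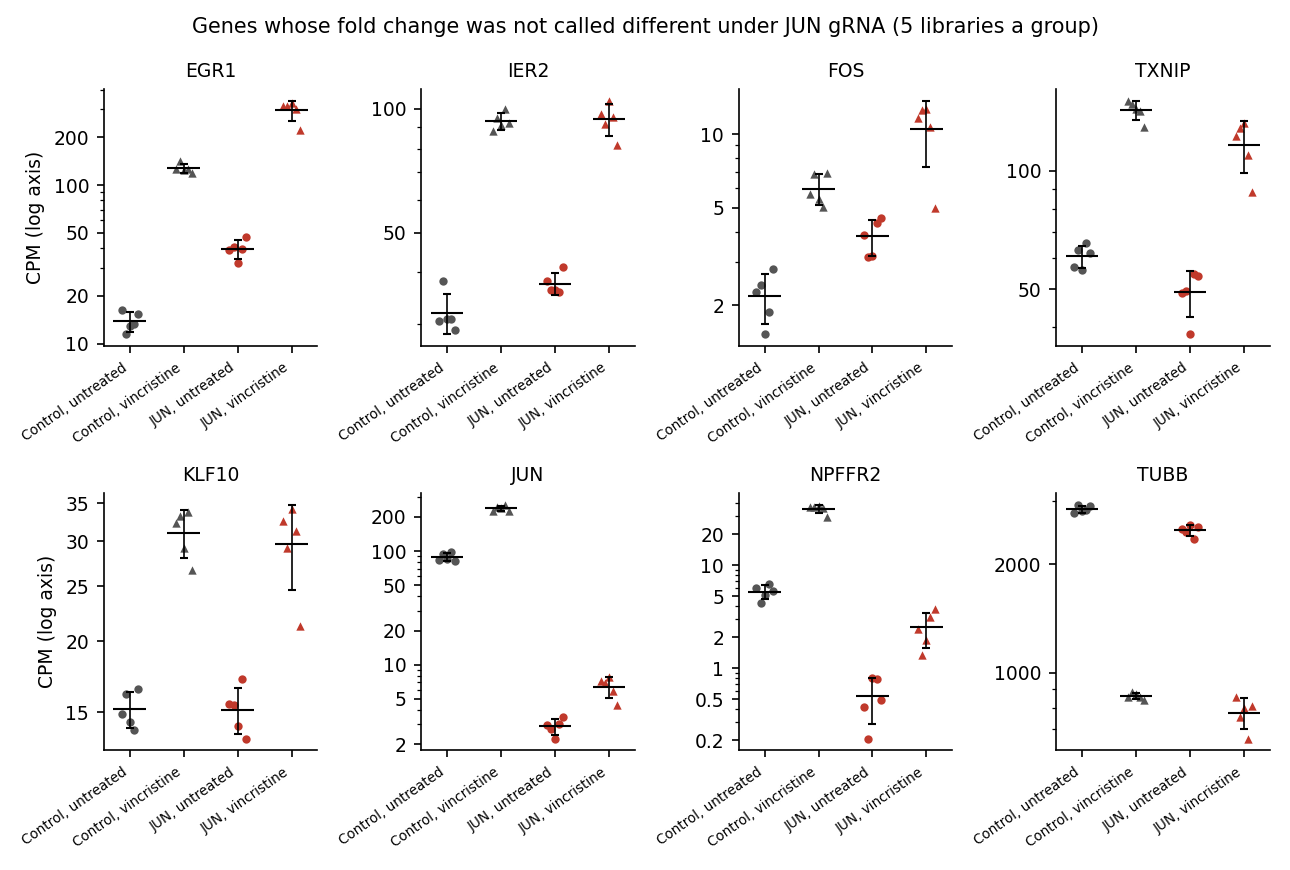
CPM (log axis) of 8 genes whose fold change was not called different between the lines, in 5 libraries per group, with mean (bar) and SD (whiskers). EGR1 and FOS lie higher in JUN gRNA, JUN and NPFFR2 far lower, and TUBB falls in both lines; replicate 5 of JUN gRNA with vincristine is the lowest point of its group in EGR1, IER2, FOS, TXNIP, KLF10 and JUN.

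Some genes without a called difference in effect stood at far lower levels in JUN gRNA. Chosen after their values were seen, 8 induced genes with a mean log2 CPM of at least 1 were called lower by at least 2 log2 units in JUN gRNA both without and with drug. Besides JUN they are CYTOR, LIPH, NPFFR2, ANKRD33B, SFRP4, GAL and PIRT. A difference that was not called does not show that the fold was kept: of these, LIPH, ANKRD33B, GAL and PIRT were not called raised in JUN gRNA. The difference of ANKRD33B was called in 5 alternative fits, among them DESeq2 (-0.66) and limma voom (-0.75), and that of LIPH in 2, with DESeq2 (-1.27) and in the fit of 4 groups (-1.33), beside some with 1 library left out. NPFFR2, a neuropeptide receptor, held 6.02, 4.34, 5.18, 6.60 and 5.56 CPM in untreated and 36.6, 36.8, 37.2, 35.4 and 29.4 in treated Control gRNA. With JUN gRNA it held 0.423, 0.208, 0.810, 0.786 and 0.496 and 2.42, 1.36, 1.89, 3.12 and 3.72, so the treated level stayed under every untreated Control gRNA library. GAL, the injury-induced neuropeptide galanin, stood at 2.31 ± 0.393 and 5.20 ± 0.574 CPM in Control gRNA and at 0.148 ± 0.0917 and 0.176 ± 0.105 in JUN gRNA (SD, n = 5), log2 differences of -3.99 and -4.84. CYTOR, a long non-coding RNA, had differences of -3.02 and -3.63.

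Some genes moved in opposite directions. KITLG, the ligand of the KIT receptor, rose in Control gRNA from 12.9, 14.9, 17.7, 17.2 and 15.4 to 41.8, 38.2, 43.8, 38.6 and 35.0 CPM. In JUN gRNA it fell from 17.3, 16.7, 17.3, 20.0 and 15.9 to 9.49, 12.2, 9.00, 10.3 and 11.7. The untreated groups overlapped, and the groups with drug did not (log2 fold changes 1.34 ± 0.09 and -0.73 ± 0.09, SE; edgeR adjusted p of the difference 8.7e-17). MSANTD4 went from 160.3 ± 8.36 to 346 ± 14.1 CPM in Control gRNA and from 132 ± 5.72 to 113 ± 7.70 in JUN gRNA (SD, n = 5). SSTR3, a somatostatin receptor, did not reverse: it was called raised in both lines (log2 fold change 1.12 in Control gRNA and 2.01 in JUN gRNA). It was the only induced gene with a called difference above 0. SSTR3 held 1.59, 1.63, 1.75, 1.25 and 0.571 CPM in treated Control gRNA and 15.9, 14.3, 13.5, 11.8 and 9.02 in treated JUN gRNA. Without drug it held 0.637 ± 0.0558 and 3.21 ± 0.241 (SD). The Control gRNA groups overlapped, at low levels. Its difference of 0.89 ± 0.24 (SE; edgeR adjusted p = 0.0065) was not called by limma voom.

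Some genes that vincristine lowered in Control gRNA fell less in JUN gRNA. Of 172 genes lowered by at least 1 log2 unit in Control gRNA (0.829%), the difference was called above 0 for 97, beside 8.71% of all genes. The Control gRNA libraries enter both this choice and the difference, which favours values above 0, so the count is a description. Of 278 genes lowered by as much in WT neurons of the other experiment, a choice made after seeing the data that uses none of these libraries, the difference was called above 0 for 95 and below 0 for 2, against 10.6% above 0 among genes tested in both experiments. CDH20, a cadherin, fell from 15.0, 11.9, 15.4, 12.6 and 15.1 to 3.71, 3.70, 2.47, 4.16 and 3.50 CPM in Control gRNA. With JUN gRNA it held 11.4, 14.0, 10.7, 12.9 and 11.1 without and 10.5, 10.9, 11.4, 10.8 and 12.1 with drug, which overlap. VWC2L, a secreted BMP antagonist, fell from 44.9 ± 2.62 to 11.8 ± 0.824 CPM in Control gRNA and from 50.5 ± 2.64 to 39.4 ± 3.89 in JUN gRNA (SD, n = 5). ARHGEF26, an exchange factor for small GTPases, and the non-coding gene ENSG00000227716 had differences of 1.79 ± 0.29 and 1.77 ± 0.37 (SE). LHX1, a homeobox factor of neuron identity, fell in Control gRNA from 47.0, 45.1, 43.1, 44.1 and 46.3 to 18.3, 19.1, 19.4, 19.7 and 21.0 CPM. In JUN gRNA it rose from 48.1, 49.8, 47.5, 47.1 and 48.6 to 64.7, 55.9, 60.6, 58.5 and 57.5. DLL4, a Notch ligand, and LHX1-DT, the divergent transcript beside LHX1, also rose in JUN gRNA (0.23 ± 0.06 and 0.23 ± 0.07) after falling in Control gRNA (-1.07 ± 0.07 and -1.13 ± 0.08, SE).

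Libraries that did not define the classes give a further description, with no test between classes. The other experiment used WT neurons and knockouts of DLK, of LZK and of both, untreated or with vincristine (4 libraries a group). In WT, the median log2 fold change was 1.14 over JUN-dependent genes, 1.72 over partly dependent and 1.24 over JUN-independent genes. There 252 of 301 tested, 58 of 60 and 13 of 13 were called raised, beside 16.3% of all genes. In DLK knockout (KO) neurons the medians were 0.39, 0.77 and 0.54, with 91, 39 and 9 called (4.55% of all), and in LZK KO 0.40, 0.85 and 0.45, with 88, 38 and 5 called (2.42%). In the knockout of both kinases they were 0.03, 0.03 and 0.08; 1 gene of these, STMN4, was called raised (0.00591% of all). EGR1 had log2 fold changes of 4.01 ± 0.16 in WT and 0.06 ± 0.23 in the double KO, ATF3 3.98 ± 0.11 and 0.37 ± 0.23 and STC1 2.79 ± 0.14 and -0.14 ± 0.15 (SE). In the double KO the JUN-independent genes, like the others, had a median near 0.

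With ATF2 gRNA in the same experiment (5 untreated libraries, 4 with vincristine), the medians were 0.10 over JUN-dependent, 0.27 over partly dependent and 0.36 over JUN-independent genes, and 37, 28 and 7 genes were called raised (1.88% of all). JUN stood at 21.0 ± 2.00 CPM without and 20.5 ± 3.08 with drug in these cells (SD), below untreated Control gRNA. Untreated EGR1 stood at 536 ± 16.4 CPM, and stood at 713 ± 32.7 with drug (SD, n = 5 and 4). In log2 fold change, EGR1 rose by 0.41 ± 0.10, FOS by 0.84 ± 0.18, ATF3 by 0.48 ± 0.07 and STC1 by 0.74 ± 0.12 (SE), while the median of the tubulins was -1.37. The JUN gRNA and ATF2 gRNA effects were not tested against each other.

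**Figure D5:**
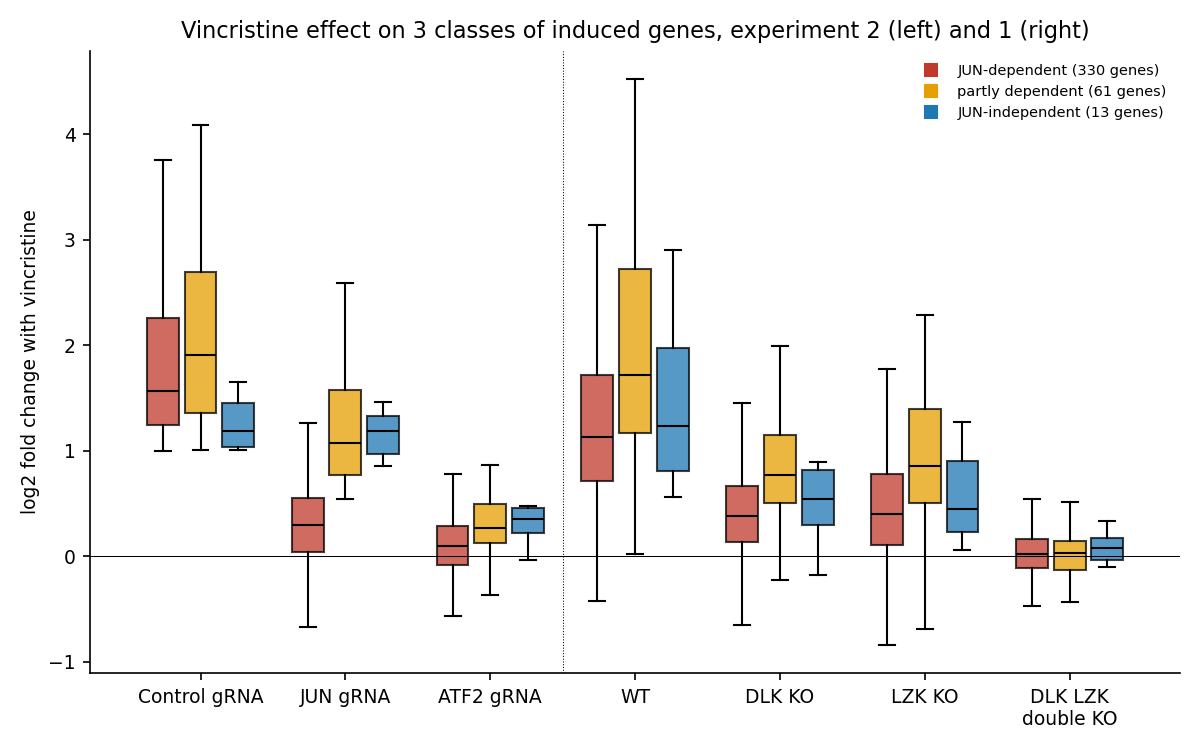
Log2 fold change with vincristine of the genes of 3 classes, in the 3 guide lines (experiment 2, left of the dotted line) and the 4 genotypes of the other experiment (experiment 1). Boxes span the quartiles with the median, whiskers reach at most 1.5 times the box, and genes beyond them are not drawn. The classes were chosen on Control gRNA and JUN gRNA; in the double knockout all 3 medians lie between 0.03 and 0.08.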

How the data were processed

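Poly(A) RNA from NGN2 neurons was sequenced with a stranded kit, per the labels' protocols. The deposited table holds whole-number read counts per gene made by the authors. The submitters' processing notes name cutadapt 3.4, STAR, featureCounts of Subread 2.0.1 and GRCh38; the strand setting and the use of marked duplicates are not given in the sources used here. All 29 libraries of the experiment (6 groups, ATF2 gRNA included) entered 1 fit with edgeR 4.0.16 (R 4.3.3): filterByExpr, TMM, a mean per group, the robust quasi-likelihood test, and Benjamini-Hochberg adjustment over 20759 genes at 0.05. The difference in effect was a contrast in that fit; SE is the log2 fold change over the root of the F statistic. Levels are CPM with TMM factors. The other experiment was fitted in the same way (18235 genes). The procedure was tested on simulated data. No 2 libraries of the 40 pairs checked within the 4 groups agreed within sampling noise (lowest chi-square per gene 5.21). Deviations of same-numbered libraries correlated at -0.27 to 0.20 over 30 pairs, so numbers were not used as a block.

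Named genes were JUN and ATF2; among induced genes with a mean log2 CPM of at least 1 and no overlap between the Control gRNA groups, the 12 lowest JUN-dependent differences and the 12 JUN-independent genes with the highest fold; the 5 highest called differences of lowered genes; and in each of 16 lists the 4 called members with the largest fold in Control gRNA. Other members of the lists are named for their calls. The classes, lists and members were chosen with earlier results of these data known. Alternatives were DESeq2 1.42.0, limma 3.58.1 voom, RLE factors, other filters, a fit on the 4 groups alone, other class limits, a replicate block and leaving out each library. Promoters are from RefSeq, GRCh38.p14.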

Additional observations from a re-analysis of the deposited data

Results flagged for a closer look

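Of 120 groups of 5 libraries tested (30 genes in 4 groups), 8 had 1 library far from the others, where chance gives about 5%. For F2RL2, untreated replicate 2 of Control gRNA held 0.741 CPM against 1.62 to 1.91 in the others. For ENSG00000236841 and EPHA2, replicate 5 of Control gRNA with vincristine held 14.3 CPM against 20.3 to 22.2, and 4.89 against 6.48 to 6.76. For EGR1 and FOS, replicate 5 of JUN gRNA with vincristine held 224 CPM against 302 to 330, and 4.97 against 10.7 to 12.7. For IER2, untreated replicate 2 of Control gRNA held 38.2 CPM against 29.0 to 30.9. For BEAN1, untreated replicate 4 of Control gRNA held 6.95 CPM against 4.74 to 5.07. For ENSG00000227716, replicate 2 of JUN gRNA with vincristine held 3.4 CPM against 1.43 to 1.86.

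The effect of vincristine differed between JUN gRNA and Control gRNA for 3273 genes by the test of the difference itself.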

How the results depend on the processing

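The number of JUN-dependent genes was 330, and 303 to 354 when any 1 library was left out. It was 103 when induction needed a log2 fold change of 2, and 203 when at most 25% of the response could be kept. With DESeq2 it was 316, with limma voom 445 and with no filter 356. Among genes induced in WT it was 222. JUN-independent genes numbered 13, and 8 to 17 with 1 library left out. They numbered 1 with a log2 fold change of 2, 23 among genes induced in WT, 0 with a margin of 1.2-fold and 41 with a margin of 2-fold, the last chosen after seeing the data. The size of this class thus follows its margin. Called genes with 1 library left out ranged from 2867 to 3426 for the difference, 6756 to 7414 for the effect in Control gRNA, 2881 to 3475 for JUN gRNA, 1627 to 2659 for untreated and 5056 to 5697 for treated libraries. Replicate numbers did not pair the libraries: 3 of 30 correlated best with their own number. With the replicate block, 3172 differences, 327 JUN-dependent and 12 JUN-independent genes were called. Differences numbered 3803 with DESeq2 and 4604 with limma voom. For the 99 named genes, 2584 of 2665 values over the alternatives kept their call, 58 gained a call, 23 lost one and 0 reversed. Direction was compared only where the main or the alternative value was called. Some values called in neither changed sign, among them those of SEL1L3 and KLF10 without replicate 5 of JUN gRNA with vincristine. GARS1, WARS1, ARC, KCNA1 and SSTR3 lost a call in at least 1 setting. Neither loss nor retention could be shown for the 468 undetermined genes, 67 of which had a mean log2 CPM of at least 1.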
